A study of Mus musculus with 6 samples.

Results

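The genes described here are 46 mouse genes of DNA replication and nucleotide supply, chosen by name from the subunits of the replication machinery and the enzymes that make deoxynucleotides. All 46 were measured among 25428 array features, each holding 1 gene. The rule itself used no measured value, although earlier results of these data were known when the genes were listed. RNA of 1 lung lobe per mouse was measured on 1 array per mouse, in 3 mice of genotype Nfat5fl/fl, which carry floxed Nfat5 alleles, and in 3 of genotype Nfat5(EC)-/-, in which the endothelial cells have lost Nfat5. NFAT5 is a transcription factor of the osmotic stress response. Both groups had been kept at 10% oxygen for 7 days, so that every difference below is one between genotypes in hypoxic lungs, and no mouse at normal oxygen was compared. The mice of each group carry the numbers 1, 3 and 4. Not given in the sources used here were the promoter driving Cre, the age and sex of the mice and the array model.

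A cell copies its DNA once per division. The origin recognition complex marks start sites, Cdc6 and Cdt1 load the ring of MCM subunits there, and kinases together with Cdc45 and the GINS complex turn that ring into the moving helicase. Polymerase alpha with primase then lays down primers, polymerases delta and epsilon extend them on the sliding clamp PCNA, and ribonucleotide reductase, thymidylate synthase and thymidine kinase supply the building blocks. In the lung most cells rest, and many of these genes are known targets of E2F factors, which are active when a cell enters S phase.

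The replication genes did not move as a block in Nfat5(EC)-/- lungs. Of the 46 members, 11 fell, 4 rose and 31 did not pass an adjusted p of 0.05 (limma, Benjamini-Hochberg adjustment over all features). Across all features 25.6% passed, of which 13.1% of features were lower and 12.5% higher, against 32.6% of the members, with 23.9% lower and 8.70% higher. All differences below are on the log2 scale, with the Nfat5fl/fl mean subtracted from that of Nfat5(EC)-/-, and carry the standard error (SE) of the fit. The median difference of the members was -0.13, beside 0.04 for all features and 0.03 for the 19686 protein-coding features, and 33 members lay below 0 and 13 above. The values of the 2 groups did not overlap for 24 members, 17 lower and 7 higher in Nfat5(EC)-/-, which is 52.2% of the members beside 42.0% of all features. At an unadjusted p under 0.05, 19 members were lower and 8 higher. All features were not counted at this threshold, so these numbers do not show an excess among the members. The median absolute difference between the genotypes was 0.64 over the members and 0.40 over all features, and 11 members (23.9%) differed by at least 1 log2 unit beside 16.6% of all features. In a lung lobe, fewer cells of a type and less RNA per cell cannot be told apart. Only 3 arrays per genotype limit the precision of each value, and nothing in the sources says whether arrays were processed together.

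**Figure D1:**
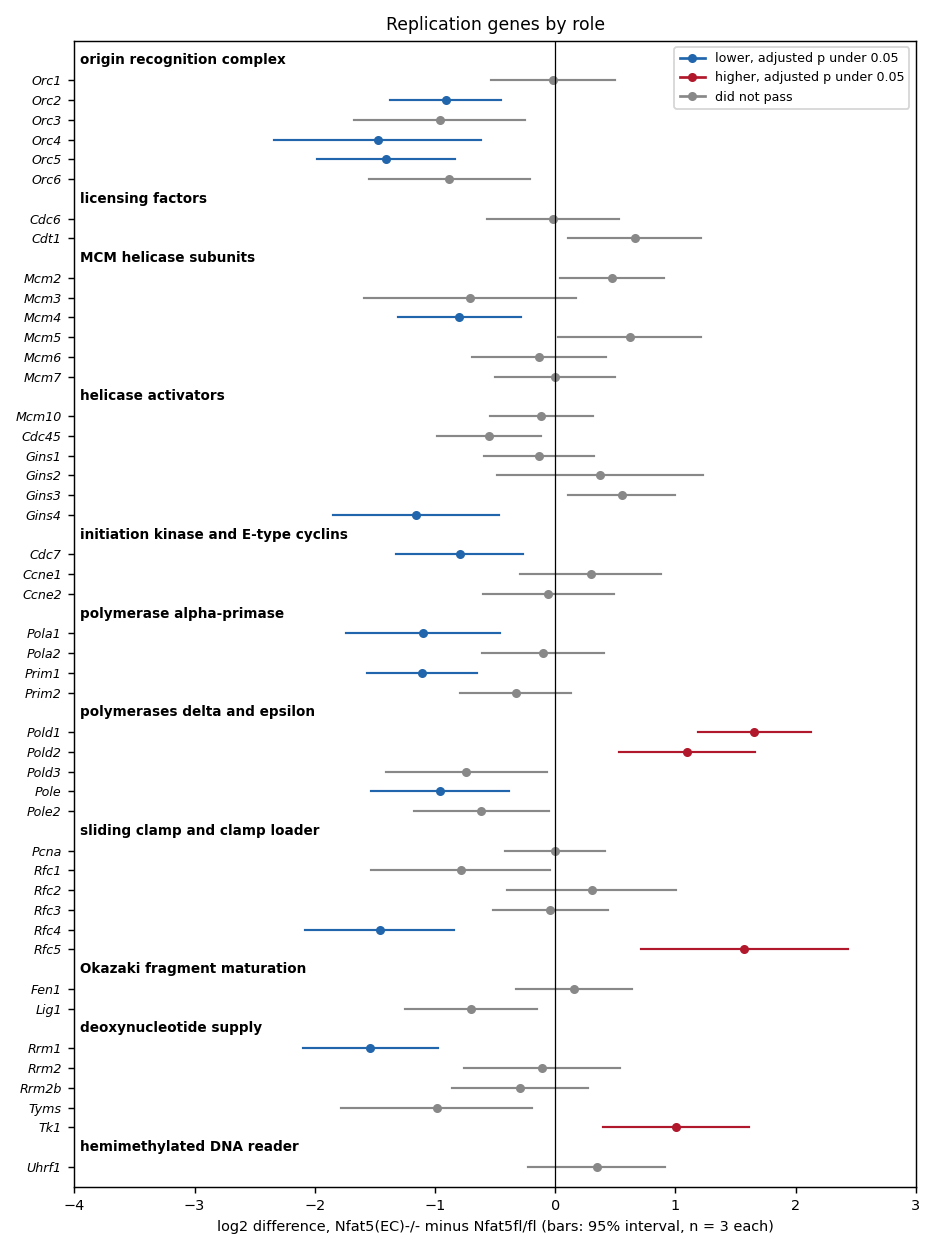
Log2 difference (Nfat5(EC)-/- minus Nfat5fl/fl, horizontal axis) of each of the 46 replication genes, ordered by role. Points are fitted differences and bars their 95% intervals with n = 3 lungs each, with blue for the 11 genes that fell, red for the 4 that rose and grey for the 31 that did not pass. In the clamp loader, for example, Rfc4 sits at -1.46 and Rfc5 at 1.57, whereas all 3 genes of the origin recognition complex that passed lie below 0.

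The labels and the cell make-up of the lungs were checked first. Nfat5 measured between 6.30 and 6.65 on the Nfat5fl/fl arrays and between 3.89 and 4.48 on the Nfat5(EC)-/- arrays (difference -2.23, SE 0.23, adjusted p = 0.00151), although whether its probes lie in the deleted part is not given here. Correlations across features were 0.968 to 0.970 between Nfat5fl/fl arrays, 0.916 to 0.939 between Nfat5(EC)-/- arrays and 0.829 to 0.919 between groups. Lung identity was present, with the Nfat5fl/fl means of all 10 alveolar epithelium markers above the median of an array. The Nfat5fl/fl means of all 6 thymocyte markers lay below it, and 0 of these 6 passed. The endothelial list had 5 of 10 markers lower and 3 higher, and its summed level, the log2 of the sum of its markers' linear values, was 11.64 to 11.92 in Nfat5fl/fl and 10.99 to 11.14 in Nfat5(EC)-/- lungs. Such a sum follows its brightest markers, which in Nfat5fl/fl lungs were Cdh5 (difference -1.52) and Pecam1 (-1.59). The 3 higher markers were Eng (1.03), Egfl7 (1.06) and Cldn5 (0.91), so the sum does not speak for every marker. Of 19 measured mitosis genes 10 fell and 1, Cdc20 (0.63), rose, and the summed level was 9.31 to 9.50 against 8.28 to 8.57. The summed level of 9 macrophage and monocyte markers was 8.86 to 9.01 against 7.72 to 8.65, with 3 lower and 0 higher, that of 5 club cell markers 13.16 to 13.42 against 12.39 to 12.82, with 2 lower and 0 higher, and that of 6 cardiac muscle markers 7.61 to 7.98 against 8.06 to 8.93, with 2 higher and 0 lower. The brightest club cell markers in Nfat5fl/fl lungs, Scgb1a1 (adjusted p = 0.0525) and Cyp2f2 (0.0663), did not pass. Nor did Chil3 (0.0881), the brightest macrophage and monocyte marker there. The summed levels of the other 10 of 15 cell type lists overlapped between the groups. The part of these cell types in the differences of the replication genes was not tested. The members varied more among Nfat5(EC)-/- lungs, with a larger SD there for 38 of 46 and a median SD of 0.41 against 0.18, beside 0.30 and 0.20 for all features.

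Promoter sequence was examined because E2F sites are the best known shared feature of these genes. At least 1 window from 250 bases before to 50 after a RefSeq start (GRCm38.p6) was matched by gene number for 37 of the 46 members. Some genes had several starts, and a gene was counted as holding letters if any of its windows held them. The E2F letters searched, on both strands, were TTTCCCGC, TTTCGCGC, TTTGCCGC and TTTGGCGC, and 16 of the 37 members (43.2%) held at least 1, beside 608 of 18642 genes (3.26%). The stretches from base -160 to -1 of 3 members with these letters that did not pass the test, of 1 that fell and holds them, and of the members that fell and rose with the smallest p follow 5′ to 3′, with the E2F letters in capitals.
Mcm5 (chr8:75109349-75109508, plus strand): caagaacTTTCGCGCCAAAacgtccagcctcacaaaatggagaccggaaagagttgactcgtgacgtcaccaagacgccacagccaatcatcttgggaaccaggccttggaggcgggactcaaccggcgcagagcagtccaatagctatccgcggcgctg
Mcm6 (chr1:128359706-128359865, minus strand): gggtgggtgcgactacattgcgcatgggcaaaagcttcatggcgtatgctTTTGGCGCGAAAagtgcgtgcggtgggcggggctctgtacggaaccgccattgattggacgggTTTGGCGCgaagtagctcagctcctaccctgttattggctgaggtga
Cdc6 (chr11:98907991-98908150, plus strand): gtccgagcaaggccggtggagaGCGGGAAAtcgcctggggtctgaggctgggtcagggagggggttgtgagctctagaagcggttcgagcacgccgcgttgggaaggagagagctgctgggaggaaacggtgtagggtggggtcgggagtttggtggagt
Pola1 (chrX:93632156-93632315, minus strand): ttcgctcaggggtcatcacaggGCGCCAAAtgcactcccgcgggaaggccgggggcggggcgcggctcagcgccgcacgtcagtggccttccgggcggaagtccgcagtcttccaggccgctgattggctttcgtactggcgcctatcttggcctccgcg
Rrm1 (chr7:102441535-102441694, plus strand): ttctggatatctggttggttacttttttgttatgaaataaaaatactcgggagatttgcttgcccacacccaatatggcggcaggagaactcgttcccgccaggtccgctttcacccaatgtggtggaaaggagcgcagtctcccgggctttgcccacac
Pold1 (chr7:44548816-44548975, minus strand): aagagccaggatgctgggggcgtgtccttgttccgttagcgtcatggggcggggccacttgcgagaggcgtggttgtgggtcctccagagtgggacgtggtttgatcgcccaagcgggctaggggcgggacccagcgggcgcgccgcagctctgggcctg
In Mcm5 the capitals are a pair of overlapping matches on opposite strands, and Mcm6 holds such a pair and a further match closer to the start. Rrm1 shows none of the letters in its window, and Pold1 holds them only after its start, at base 40. A match describes letters only and is not evidence of binding.

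Few of the members that fell held the E2F letters. Of the 8 members that fell and had a window, 1 (Pola1) held the letters. Of the 4 that rose, 1 (Pold1) held them, and of the 25 others with a window, 14 did. The median difference was -0.03 over the 16 members with the letters and -0.55 over the 21 without, and 7 of those 21 fell and 3 rose. This contrast was not tested. It compares letters in the windows searched, and a member without them may still be a target of E2F factors. The 9 members without a window (Mcm4, Gins1, Gins2, Gins4, Ccne2, Prim2, Pole, Rfc2 and Rrm2b) had a median of -0.29. Other letters known from cell cycle genes and NFAT5 targets stood as follows. CCAAT, the letters bound by NF-Y, stood in 21 of 37 members (56.8%) beside 41.9% of genes. The cell cycle homology region letters TTTGAA and TTCGAA stood in 8 (21.6%) beside 19.7%, and the tonicity-responsive enhancer bound by NFAT5 in 2 (5.41%) beside 5.20%. All were searched on both strands, and none of these motifs contains another, although matches may share end bases.

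**Figure D2:**
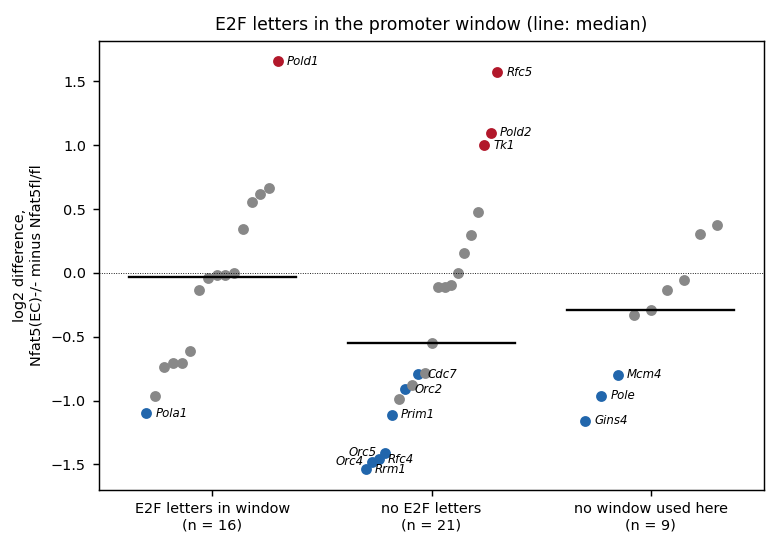
Log2 difference (vertical axis) of each member, split by whether any of its promoter windows holds the E2F letters. Horizontal lines are the group medians of -0.03 (16 genes), -0.55 (21 genes) and -0.29 (9 genes with no window). Blue points fell, red points rose and grey points did not pass, and 7 of the 11 genes that fell are in the middle group.

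The origin recognition complex had the most members that fell, 3 of 6, and the groups did not overlap for 5 of its 6 genes. Orc5, an AAA+ family subunit, measured 4.15, 4.03 and 3.94 on the Nfat5fl/fl arrays of mice 1, 3 and 4 and 2.09, 2.82 and 2.97 on the Nfat5(EC)-/- arrays. The highest Nfat5(EC)-/- lung lay 0.96 log2 units under the lowest Nfat5fl/fl lung, and mouse 1 was the lowest (difference -1.41, SE 0.25, adjusted p = 0.00554). Orc4, another AAA+ family subunit, measured 5.18, 4.82 and 4.52 against 3.10, 2.71 and 4.28. The groups stayed apart, but the Nfat5(EC)-/- lung of mouse 4 lay close to the Nfat5fl/fl range (-1.48, SE 0.38, adjusted p = 0.0216). Orc2, which binds Orc3 in the complex, measured 4.54, 4.34 and 4.30 against 3.74, 3.48 and 3.22, with every Nfat5(EC)-/- lung lower (-0.91, SE 0.21, adjusted p = 0.0128). Orc3 (-0.96, adjusted p = 0.0522) and Orc6 (-0.88, adjusted p = 0.0577) had no overlap and did not pass, and Orc1, the largest subunit, was at -0.016 with a 95% interval from -0.53 to 0.50. The call for Orc2 was lost without Nfat5fl/fl mouse 1 (adjusted p = 0.0606) or 3 (0.0512), and that for Orc4 without Nfat5fl/fl mouse 1 (0.0926) or 3 (0.0740) or Nfat5(EC)-/- mouse 3 (0.0556). Orc3 passed without Nfat5fl/fl mouse 4 (0.0310) or Nfat5(EC)-/- mouse 4 (0.0425), and Orc6 without the latter (0.0360).

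Neither licensing factor passed, 0 of 2 in either direction. Cdt1, which delivers MCM rings to origins, measured 3.43, 3.31 and 3.26 against 3.56, 4.44 and 3.99. All 3 Nfat5(EC)-/- lungs were above the Nfat5fl/fl range, mouse 1 by the least (0.66, SE 0.24, adjusted p = 0.0787), and it passed without that lung (adjusted p = 0.0209). Cdc6, the ATPase that loads MCM with it, was at -0.020 with a 95% interval from -0.57 to 0.53.

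Of the 6 MCM subunits of the replicative helicase, 1 fell and 0 rose. Mcm4, a core ring subunit, measured 4.51, 4.71 and 4.56 against 3.96, 4.05 and 3.38. All Nfat5(EC)-/- lungs were lower, mouse 4 the lowest (-0.80, SE 0.23, adjusted p = 0.0311). The other subunits pointed both ways, with Mcm2 (0.48) above without overlap, Mcm5 (0.62) and Mcm3 (-0.71) overlapping, and none of these passed. Mcm6 (-0.14) and Mcm7 (-0.0011) lay near 0, with an interval from -0.50 to 0.50 for Mcm7. The call for Mcm4 was lost without any of the Nfat5fl/fl mice 1 (adjusted p = 0.0831), 3 (0.119) and 4 (0.0783) and without Nfat5(EC)-/- mouse 4 (0.0644). Mcm3 passed without Nfat5(EC)-/- mouse 3 (0.0174) and Mcm5 without Nfat5(EC)-/- mouse 1 (0.0198).

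Of the 6 helicase activators, 1 fell and 0 rose. Gins4 encodes a subunit of the 4-protein GINS complex and measured 4.40, 4.24 and 3.87 against 2.33, 3.46 and 3.24. All 3 Nfat5(EC)-/- lungs were lower than all Nfat5fl/fl lungs, mouse 1 the lowest (-1.16, SE 0.31, adjusted p = 0.0236). Another GINS subunit pointed the opposite way, Gins3 at 0.55 (adjusted p = 0.0684) with no overlap. Cdc45, the helicase cofactor, was at -0.55 (adjusted p = 0.0648), also with no overlap. Gins1 (-0.13), Gins2 (0.37) and Mcm10 (-0.11), which helps activate the helicase, overlapped. Gins4 did not pass without Nfat5fl/fl mouse 1 (0.0971) or 3 (0.0875), while Cdc45 passed without Nfat5(EC)-/- mouse 4 (0.0469).

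Among the initiation kinase and the E-type cyclins, 1 of 3 fell. Cdc7, the kinase that phosphorylates MCM to fire origins, measured 3.52, 3.50 and 3.20 against 3.03, 2.35 and 2.46. The groups did not overlap, with the Nfat5(EC)-/- lung of mouse 1 nearest to the Nfat5fl/fl range (-0.79, SE 0.23, adjusted p = 0.0354). Ccne1 (0.29) and Ccne2 (-0.057), the E-type cyclins that drive S phase entry, overlapped between groups. The Cdc7 call rested on nearly every lung, since it was lost without Nfat5fl/fl mouse 1 (0.123), 3 (0.126) or 4 (0.0570) and without Nfat5(EC)-/- mouse 3 (0.0933) or 4 (0.0801).

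Polymerase alpha-primase, which makes the RNA-DNA primer of every new strand, had 2 of 4 subunits that fell. Prim1, the catalytic primase subunit, measured 3.27, 3.32 and 3.31 against 1.88, 2.33 and 2.35. The Nfat5fl/fl lungs lay within 0.046 log2 units of each other, and a gap of 0.92 separated them from the highest Nfat5(EC)-/- lung (-1.11, SE 0.20, adjusted p = 0.00566). Pola1, the polymerase subunit, measured 3.53, 3.74 and 3.06 against 1.83, 2.44 and 2.76. The groups did not overlap, with mouse 1 the lowest Nfat5(EC)-/- lung (-1.10, SE 0.28, adjusted p = 0.0221). Prim2 (-0.33) and Pola2 (-0.098), their partner subunits, overlapped. Pola1 did not pass without Nfat5fl/fl mouse 1 (0.0839) or 3 (0.0971), or among protein-coding features with the gene span trend described below removed (-0.75, adjusted p = 0.0803).

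The polymerases that extend the primers moved in both directions, with 2 of the 5 subunits among the members that rose and 1 that fell. Pold1, the catalytic subunit of polymerase delta, measured 3.57, 3.72 and 3.61 against 5.03, 5.23 and 5.60. A gap of 1.31 log2 units separated the lowest Nfat5(EC)-/- from the highest Nfat5fl/fl lung, and the difference of 1.66 (3.16-fold, SE 0.21, adjusted p = 0.00218) had the smallest p of all members. Pold2, a further delta subunit, measured 3.57, 3.72 and 3.85 against 4.81, 4.36 and 5.26. All Nfat5(EC)-/- lungs were again above the Nfat5fl/fl range, mouse 3 the closest (1.10, SE 0.25, adjusted p = 0.0135). Pole, the catalytic subunit of polymerase epsilon on the leading strand, measured 2.91, 3.37 and 3.67 against 2.69, 2.14 and 2.23. The lowest Nfat5fl/fl lung and the highest Nfat5(EC)-/- lung, both mouse 1, were close together (-0.96, SE 0.25, adjusted p = 0.0238). Pold3 (-0.74) and Pole2 (-0.61), accessory subunits of polymerases delta and epsilon, overlapped and did not pass. Pold2 was lost without Nfat5fl/fl mouse 1 (0.0626) or 3 (0.0559). Pole was lost without Nfat5fl/fl mouse 3 (0.0893) or 4 (0.0869), without Nfat5(EC)-/- mouse 3 (0.0639) or 4 (0.0556), and among protein-coding features with the gene span trend removed (-0.71, adjusted p = 0.0739). Without Nfat5(EC)-/- mouse 1, Pold3 (0.00691) and Pole2 (0.0428) passed.

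**Figure D3:**
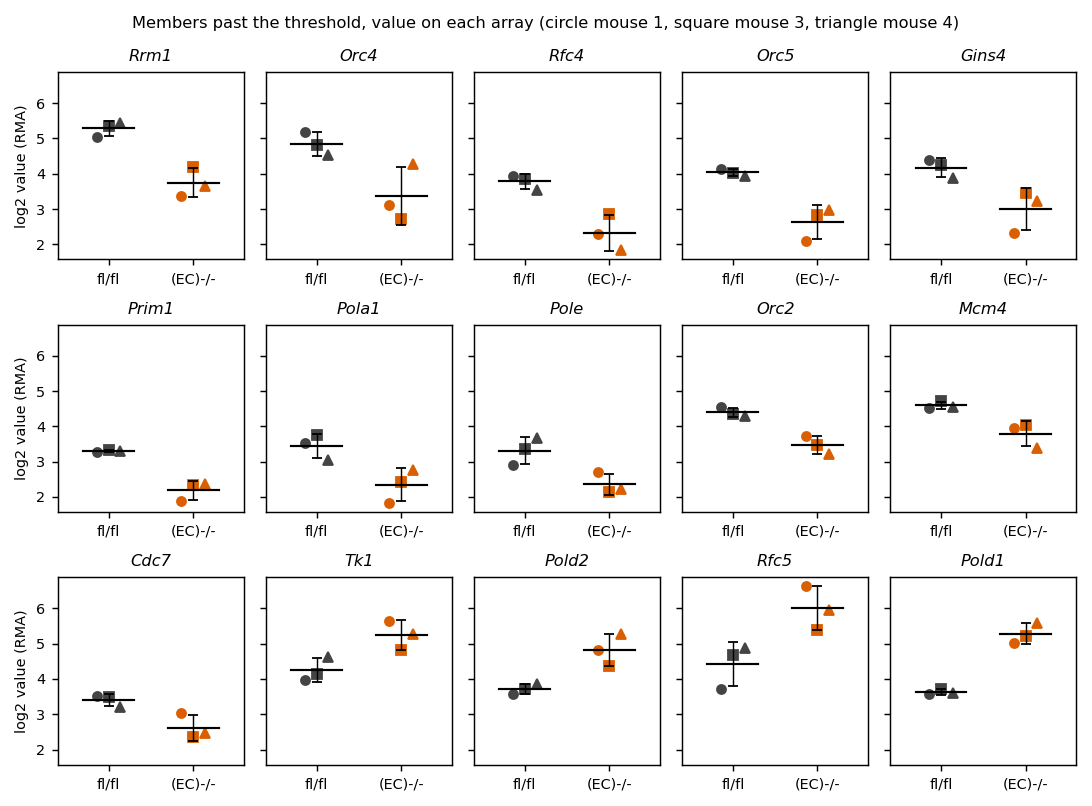
Deposited log2 value (vertical axis) on each array for the 15 replication genes that passed, Nfat5fl/fl left and Nfat5(EC)-/- right in each panel. Circles are mouse 1, squares mouse 3 and triangles mouse 4, with lines at group means and bars of 1 SD (n = 3), and the groups do not overlap in any panel.

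In the clamp loader, which opens PCNA and closes it around DNA, 1 of 5 subunits fell and 1 rose. Rfc4, a small loader subunit, measured 3.95, 3.86 and 3.55 against 2.28, 2.86 and 1.83. Every Nfat5(EC)-/- lung was lower, mouse 4 the lowest (-1.46, SE 0.27, adjusted p = 0.00644). Rfc5, another small subunit, measured 3.71, 4.68 and 4.88 against 6.64, 5.40 and 5.95. The groups did not overlap, and the Nfat5fl/fl lung of mouse 1 was low beside the other two (1.57, SE 0.38, adjusted p = 0.0167). Rfc1 (-0.79) did not overlap and did not pass, while Rfc2 (0.30) and Rfc3 (-0.039) overlapped. Pcna, the clamp itself, measured 7.47, 7.60 and 7.57 against 7.41, 7.71 and 7.51, an interleaved set with a difference of -0.0017 and a 95% interval from -0.42 to 0.42. Rfc5 did not pass without Nfat5fl/fl mouse 1 (1.22, adjusted p = 0.0658). Without Nfat5(EC)-/- mouse 4 Rfc1 passed (0.0422), and without Nfat5(EC)-/- mouse 3 Rfc2 did (0.0391).

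For the enzymes that mature Okazaki fragments, 0 of 2 passed. Lig1, the ligase that seals lagging strand fragments, measured 3.32, 3.65 and 3.77 against 3.26, 2.86 and 2.51. The Nfat5(EC)-/- lungs were lower without overlap, although mouse 1 of each genotype lay nearly level (-0.70, SE 0.24, adjusted p = 0.0631), and Lig1 passed without Nfat5(EC)-/- mouse 1 (0.0235). Fen1, the flap endonuclease, was at 0.16 with overlap.

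Deoxynucleotide supply had 1 of 5 genes that fell and 1 that rose. Rrm1, the large catalytic subunit of ribonucleotide reductase, measured 5.04, 5.36 and 5.45 against 3.38, 4.19 and 3.66. The highest Nfat5(EC)-/- lung lay 0.85 log2 units under the lowest Nfat5fl/fl lung, and Rrm1 had the smallest p of the genes that fell (-1.54, 2.90-fold, SE 0.25, adjusted p = 0.00380). Its partner subunits did not pass, the S phase subunit Rrm2 at -0.11 (95% interval from -0.76 to 0.54) and the p53-inducible subunit Rrm2b at -0.29. Tk1, thymidine kinase of the salvage route, measured 3.97, 4.14 and 4.62 against 5.65, 4.82 and 5.28. The groups did not overlap, with mouse 4 of Nfat5fl/fl and mouse 3 of Nfat5(EC)-/- nearest each other (1.00, SE 0.27, adjusted p = 0.0250). Tyms, thymidylate synthase of the de novo route, was at -0.98 without overlap (adjusted p = 0.0698). The Tk1 call was lost without Nfat5fl/fl mouse 1 (0.104) or 3 (0.0965), without Nfat5(EC)-/- mouse 1 (0.0555) or 4 (0.0517), and among protein-coding features with the gene span trend removed (0.80, adjusted p = 0.0508), while Tyms passed without Nfat5(EC)-/- mouse 4 (0.0197). Uhrf1, which reads hemimethylated DNA behind the fork, measured 4.36, 4.00 and 4.43 against 4.68, 4.16 and 4.98 and the groups overlapped (0.35, SE 0.25, adjusted p = 0.362).

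The difference followed gene span, the genomic distance from start to end of a gene with its introns. Across the 46 members, which share the same 6 arrays, Spearman's rho between span and difference was -0.55, and it was -0.55 over 44 members without the longest pair, beside -0.32 over all protein-coding features. The 11 members that fell spanned 11059 to 327622 bases (median 28077), and the 4 that rose spanned 6077 to 16072 bases (median 10224). Of the 22 members over 20 kb (20000 bases), 7 fell and 0 rose, 21 lay below 0 and their median was -0.72. Of the 24 shorter members, 4 fell and 4 rose and their median was 0.08. This split was described after the values were known. Of all protein-coding features 47.9% span over 20 kb, and how many of those fell or rose was not counted. The counts by span therefore do not set the members apart from other long genes. When protein-coding features alone were tested, 12 members fell, Orc3 among them (adjusted p = 0.0453), and 4 rose. When the trend on span was also removed from each array, 10 fell and 3 rose and their median was -0.27. Orc6 passed in that last fit (-1.12, adjusted p = 0.0207), and Pola1, Pole and Tk1 did not. The part of gene span in the differences beyond this fit was not tested.

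**Figure D4:**
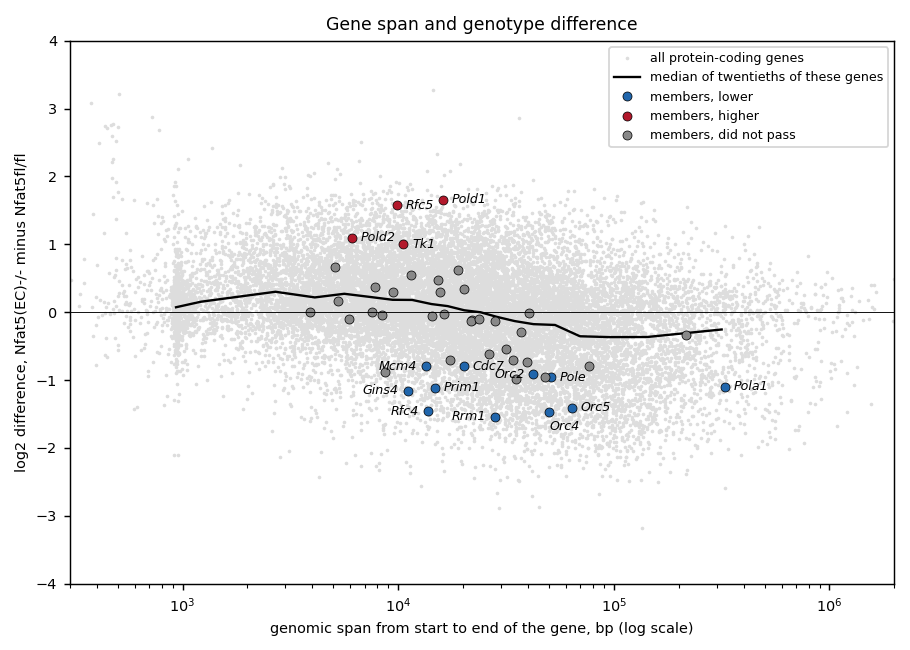
Log2 difference (vertical axis) against genomic span in base pairs (horizontal axis, log scale) for 19686 protein-coding genes (light grey, 9 outside the plotted range) and the 46 members (dark grey, or blue where they fell and red where they rose), with a black line through medians of equal bins of these genes. The 4 genes that rose lie at or under 16072 bases and the 7 longest of those that fell at 20126 bases or more.

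The values of 6 members (Orc1, Cdc6, Mcm10, Gins1, Rfc3 and Fen1) averaged under the array median of 2.98 in Nfat5fl/fl lungs. Their differences lay between -0.13 and 0.16, and the groups overlapped for all 6. Of the 31 members that did not pass, 9 had groups without overlap, 6 lower and 3 higher. Groups without overlap were common, with 42.0% over all features, and the share among all features that did not pass was not counted.

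Genes of neighbouring pathways also moved in both directions, as did all features, of which 13.1% were lower and 12.5% higher. Of 38 measured replication factors outside the members, 7 fell and 2 rose, with a median of -0.29. Mtbp, a partner of the origin firing factor Ticrr, was lower (-1.53, SE 0.23, adjusted p = 0.00294), as were Topbp1 (-1.38, adjusted p = 0.00988), a scaffold of origin firing, and Top1 (-1.16, adjusted p = 0.00930), which relaxes supercoiled DNA. Rnaseh2c, a subunit of the ribonuclease that removes ribonucleotides from DNA, was higher (1.19, adjusted p = 0.00374). Of 39 purine and pyrimidine enzymes, 6 fell and 7 rose, with a median of 0.14. Gmps, which makes GMP, was lower (-1.59, adjusted p = 0.00310). Shmt2 (1.64, adjusted p = 0.00311), the mitochondrial serine hydroxymethyltransferase, and Aprt (1.21, adjusted p = 0.00370), which salvages adenine, were higher. So was the nucleoside diphosphate kinase gene Nme2 (1.28, adjusted p = 0.00271), which closely resembles Nme1, so that its value is uncertain. Mtbp, Topbp1, Top1 and Gmps span 45262 to 76868 bases, whereas Rnaseh2c, Shmt2, Aprt and Nme2 span 1087 to 6443 bases. Not every gene that fell was long, since Ccna2 (-1.58) spans 8174 bases. The part of gene span in these lists was not tested.

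The listed regulators of E2F activity moved in both directions, although the pocket protein genes Rb1, Rbl1 and Rbl2 all fell. Of 27 E2F and pocket protein factors, 9 fell and 5 rose, with a median of -0.22, beside 13.1% of all features lower and 12.5% higher. E2f1 measured 3.41, 3.39 and 3.70 on the Nfat5fl/fl arrays and 4.67, 4.45 and 4.54 on the Nfat5(EC)-/- arrays. It was thus higher in each Nfat5(EC)-/- lung (1.05, SE 0.19, adjusted p = 0.00550), as were E2f2 (1.19, adjusted p = 0.00372), a second activating E2F, and Ccnd3 (1.40, adjusted p = 0.00261), the D-type cyclin partner. Cdk6, a kinase of these cyclins, was lower (-1.20, adjusted p = 0.00505). Rb1, the retinoblastoma pocket protein, chosen after its values were seen, measured 7.10, 6.87 and 6.49 against 4.89, 5.08 and 3.09, with the Nfat5(EC)-/- lung of mouse 4 far below the others (-2.47, SE 0.47, adjusted p = 0.00670, and -1.84 without that lung). Rbl1 (-1.16, adjusted p = 0.00989) and Rbl2 (-0.91, adjusted p = 0.0143), the other pocket protein genes, were lower too. They and E2f3 (-0.98, adjusted p = 0.00772), also lower, were likewise chosen after their values were seen. Of 19 p53 targets, 5 fell and 4 rose, with a median of 0.01. Ccng1, cyclin G1, was lower (-2.26, adjusted p = 0.00172), as was Polk, a translesion polymerase (-1.54, adjusted p = 0.00366). Phlda3, an inhibitor of AKT signalling, was higher (1.50, adjusted p = 0.00290), as was Pmaip1, a death-promoting BCL2 family gene (0.94, adjusted p = 0.0103), which did not pass without Nfat5fl/fl mouse 3 (0.0556).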

How the data were processed

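Per the labels, total RNA of lung lobes was labelled with biotin and hybridised to Affymetrix expression arrays. The deposited values are log2 levels that the authors computed with RMA, a background correction followed by quantile normalization and summary of probes. Its version and the probe set definition are not given. Such values would not show a change in total RNA. Features were matched to symbols by gene number, and 24705 of 25428 had a symbol. Every feature was tested with limma 3.58.1 (lmFit, eBayes) in R 4.3.3 on all 6 arrays, 2-sided, without filter or covariate. P-values were adjusted by Benjamini-Hochberg over the whole table, and the threshold was 0.05. The main limma fit was tested on simulated data with the same spread in both genotypes. The real spread was larger among Nfat5(EC)-/- lungs, and the other steps were not tested in this way.

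The members and lists were chosen with earlier results of these data known, so lists are described by counts and medians, with no test on them. Arrays were given per mouse for members that passed and for the member of each role with the smallest p, and for up to 4 genes of each pathway list with the smallest p the difference was given. Gene spans and promoter windows came from RefSeq (GRCm38.p6). Alternatives were a block for mouse number, leaving out the dimmest 25% of features, cyclic loess, centring on protein-coding features, other or no moderation, weighting arrays, a test against 0.5 log2 units, protein-coding features alone, removal of the span trend, and omission of each array. Python 3.11.15 with matplotlib 3.10.9 drew the figures.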

Additional observations from a re-analysis of the deposited data

How the results depend on the processing

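Of 15 calls, 1 (Pold1) passed under all 16 alternatives, 5 (Pold1, Rrm1, Prim1, Orc5 and Rfc4) passed with each array left out in turn, 12 members that did not pass did so under at least 1 alternative, and 0 calls reversed. The number of members that fell was 11 and ranged from 4 to 14 with 1 array left out, and the number that rose was 4 and ranged from 1 to 5. The lowest counts came without Nfat5fl/fl mouse 3 (4 fell, 2 rose) and mouse 1 (5 fell, 1 rose). Of all features 6510 passed, and 3017 to 6365 did with 1 array left out. The median difference of the members then ranged from -0.25 to -0.14. Without variance moderation 1 member fell and 1 rose, and 1984 features passed. Against a minimum change of 0.5 log2 units 1 fell and 1 rose, and 1530 features passed. Among protein-coding features alone 12 fell and 4 rose, and with the span trend also removed 10 fell and 3 rose, with a median of -0.27 for the members. The remaining settings gave between 11 and 16 that fell and between 4 and 5 that rose. With the mouse number as a replicate block 12 fell and 4 rose, and 6310 features passed. Over all features, deviations from the group mean correlated at 0.065, -0.010 and 0.0072 between arrays numbered 1, 3 and 4. This cannot decide whether same-numbered mice were paired or shared a batch, since an effect on part of the features could be missed. The sources do not say what a number marks. The values carry no detection call, so signal over background was not known.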
